A study of Mus musculus with 10 samples.

Results

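The genes described here encode the proteasome, the protein-degrading machine of the cell, together with the transcription factor Nfe2l1 and the protease Ddi2. Members were the rows of a gene-level RNA-seq table whose symbol begins with Psma, Psmb, Psmc, Psmd or Psme followed by a number, or is Ddi2 or Nfe2l1, with at least 10 counts in 3 or more libraries. The symbols of 45 genes matched and 43 of them met the count limit, out of 39769 symbols in the table. Counts alone decided which symbols stayed. Just inside the limit was Psmb9, with 19 to 52 counts per library. Just outside were the testis subunit Psma8, with at most 6 counts, and the thymus subunit Psmb11, with at most 3.

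RNA was measured in 10 mouse libraries, and all of the mice carried Ptch+/-, the loss of 1 copy of a brake on Sonic hedgehog signalling. The Ptch group held 4 libraries from cerebellum with no other allele, Ptch 1 and Ptch 2 at 4 months of age and Ptch 3 and Ptch 4 at 2 months. The NKP group held 3 libraries labelled medulloblastoma with the genotype Nestin-Cre Kmt2dfl/+ Ptch+/-, all at 4 months. The AKP group held 3 libraries labelled medulloblastoma with the genotype AtohI-Cre Kmt2dfl/+ Ptch+/-. The mice were 2 months old for AKP 1 and AKP 2, and 4 months old for AKP 3. By the genotype, 1 copy of Kmt2d, a histone H3 lysine 4 methyltransferase, is floxed in the NKP and AKP mice. Nestin-Cre acts in neural progenitors and their descendants, whereas a Cre under Atoh1 control acts in granule neuron precursors. The study set each genotype with a floxed Kmt2d copy against Ptch+/- cerebellum.

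The proteasome's barrel-shaped core, called 20S, stacks outer rings of alpha subunits on inner rings of beta subunits, of which Psmb5, Psmb6 and Psmb7 cut proteins. A cap, called 19S, recognises and unfolds ubiquitin-tagged proteins. Its base holds a ring of ATPases and its lid removes ubiquitin. Interferon signalling replaces the cutting subunits by Psmb8, Psmb9 and Psmb10, which form the immunoproteasome. Nfe2l1 is a transcription factor held in the endoplasmic reticulum membrane. When proteasomes fail, Ddi2 cleaves it, and the released factor raises transcription of proteasome genes through antioxidant response elements in their promoters.

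To show what such a promoter looks like, 3 stretches of 120 bases are printed here, from RefSeq, build GRCm38.p6. Each ends just before the outermost start of its gene in RefSeq or GENCODE vM21. Psmb5 and Psmb6 are cutting subunits of the core, and Ddi2 is the member with the lowest level in AKP relative to Ptch. Capitals mark the letters TGANNNNGC, a loose pattern for the core of the antioxidant response element, in which N is any base. Both strands were searched. The stretches are chr14:54618023-54618142 on the minus strand for Psmb5, chr11:70525237-70525356 on the plus strand for Psmb6 and chr4:141723420-141723539 on the minus strand for Ddi2. Each reads 5′ to 3′ along its gene.
Psmb5: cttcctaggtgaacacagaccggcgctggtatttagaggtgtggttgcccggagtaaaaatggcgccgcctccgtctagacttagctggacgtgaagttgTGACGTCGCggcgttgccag
Psmb6: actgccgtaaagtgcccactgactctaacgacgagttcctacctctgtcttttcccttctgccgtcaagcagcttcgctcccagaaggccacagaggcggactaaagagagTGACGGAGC
Ddi2: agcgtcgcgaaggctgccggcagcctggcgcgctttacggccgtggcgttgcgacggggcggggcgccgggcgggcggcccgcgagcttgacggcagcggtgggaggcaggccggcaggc
The promoter table covered 37 of the 43 members and holds 250 bases before and 50 bases after each start site. Psmb1, Psmb2, Psmb7, Psmc3, Psmd3 and Psmd7 had no entry. The letters occurred in 21 of the 37 members (56.8%) and in 12174 of 27025 genes with a promoter (45%). In Psmb5 the printed match begins at base -47 from the RefSeq start site, which lies inside the gene as GENCODE draws it. So short a pattern is common, and a match describes letters, not a bound site.

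Library totals ran from 12300430 to 19348991 counts, and the members took 64890 to 95321 of them per library. Several libraries stood apart or went against their labels. Kmt2d lay at 58.0 CPM in NKP 3, inside the Ptch range of 52.6 to 68.4, and at 33.2 to 46.9 in the other NKP and AKP libraries. CPM is the count scaled for library depth, here with library sizes corrected by the trimmed mean of M values (TMM). Y-linked expression contradicted the sex label in Ptch 1, Ptch 3, NKP 3 and AKP 3, and was below 1 CPM in Ptch 1 and Ptch 2. The proliferation gene Mki67 was above 80 CPM in Ptch 1 and Ptch 2 and below 1 CPM in NKP 1, NKP 2 and AKP 1, all labelled medulloblastoma. Atoh1, which marks granule neuron precursors, was at 0 in NKP 1 and AKP 1. Summed markers of red blood cells were 711 to 816 CPM in Ptch, 783 to 2486 in NKP and 1742 to 2233 in AKP. In AKP against Ptch 3 of their 6 genes passed the test, beside 5.68% of all genes. Summed oligodendrocyte markers were 6164 to 7502, 7714 to 12480 and 8970 to 11240 CPM, with 1 of 8 genes passing, and endothelial markers were 142 to 193 CPM in Ptch and 208 to 251 CPM in the other libraries, with 1 of 8 passing. The part of these differences in the results below was not tested. In bulk tissue, more RNA per cell and more cells of a type cannot be told apart.

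In AKP against Ptch, 8 members were higher and 1 was lower past the threshold, an adjusted p below 0.05 in edgeR's quasi-likelihood test over all 15617 genes tested. All 43 members were tested. The 9 called members are 20.9% of the set, beside 5.68% of all genes tested. The 8 called higher compare with 3.38% of all genes, and the 1 called lower, Ddi2, with 2.3%. An unadjusted p below 0.05 was reached by 27 members, 25 of them higher (12.4% of all genes) and 2 lower (12.7%), beside 25.1% of all genes in either direction. Fold changes were above 1 for 38 members, beside 47.7% of all genes, and the median log2 fold change was 0.26 in the 31 constitutive core and cap subunits, beside -0.02 over all genes. DESeq2 called 20 members and 1940 genes. All 3 AKP libraries lay above all 4 Ptch libraries for 29 members (67.4%), which happened for 12.9% of all genes. The reverse held for Ddi2 alone, and for 12% of all genes. After a correction for transcript length and GC content no member and 14 genes were called, and the subunit median was 0.10. With the sex label as a covariate Ddi2 was the only member called, among 231 genes. These calls also depend on single libraries. No member was called without Ptch 1, Ptch 2, AKP 2 or AKP 3, without the 4 libraries against their sex label, or without the libraries lacking Y-linked expression. Of all genes, 1 was called without Ptch 1, 1 without Ptch 2 and 1 without AKP 2, and 0 in the rest of these fits. The subunit median was 0.20 without AKP 2, 0.31 when the 4 libraries with a contradicted sex label were left out and 0.34 when those lacking Y-linked expression were. Only Ddi2 was called without Ptch 3 or Ptch 4, among 321 and 183 genes. Without NKP 1 there were 15 members among 1250 genes called, and without AKP 1 17 among 1459. The calls over all genes thus moved along with those of the members.

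**Figure D1:**
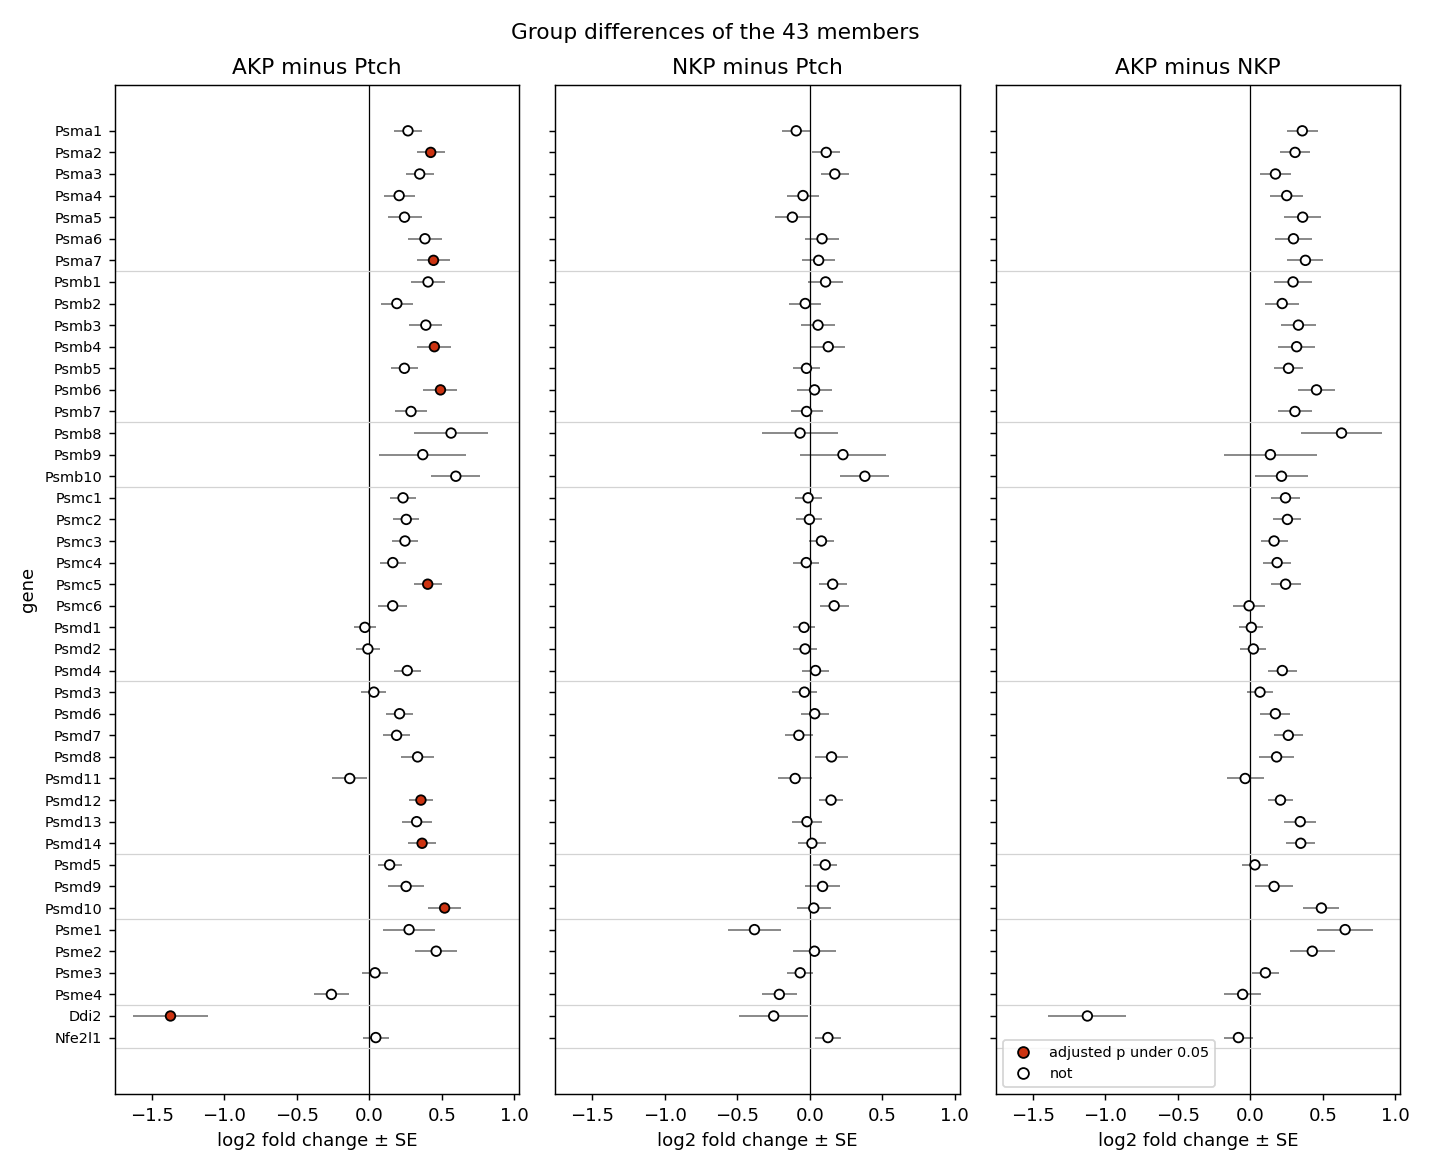
Log2 fold change with its standard error (horizontal axis) for each of the 43 members (vertical axis, ordered by role) in the 3 comparisons; red points have an adjusted p below 0.05. All 9 red points are in AKP minus Ptch, and Ddi2 at -1.37 is the only red point left of 0.

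Ddi2, the protease that frees Nfe2l1, was lower in AKP than in Ptch, at 0.387 times its level. It was at 9.31, 11.8, 7.99 and 5.71 CPM in Ptch 1 to 4, at 6.62, 7.90 and 7.45 CPM in NKP 1 to 3, and at 3.45, 2.6 and 4.05 CPM in AKP 1 to 3. Every AKP library lay below every Ptch and NKP library, and the NKP libraries lay within the Ptch range. Ddi2 fell by 1.37 on the log2 scale in AKP against Ptch (SE 0.255, edgeR adjusted p = 0.0209). It rests on few reads, 36 to 55 counts in the AKP libraries and 90 to 229 in the Ptch libraries. The difference was -1.53 without the libraries against their sex label (adjusted p = 0.406) and -1.02 without those lacking Y-linked expression (adjusted p = 0.139).

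The Ddi2 count cannot be separated with certainty from that of a nested gene. Ddi2 lies at chr4:141677549-141723419 on the minus strand (GRCm38), with 9553 exonic bases. The single exon of Rsc1a1, a regulator of sodium-coupled sugar transport, lies at chr4:141683851-141685599 on the same strand, wholly inside a Ddi2 exon, and makes up 18.3% of the Ddi2 exonic bases. A read from that stretch fits both genes, and the authors' counter divides it by estimation.

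Rsc1a1 was high in some libraries where Ddi2 was low. It was at 5.08, 2.74, 4.48 and 6.78 CPM in Ptch 1 to 4, at 3.68, 5.09 and 3.56 CPM in NKP 1 to 3, and at 5.92, 7.72 and 6.19 CPM in AKP 1 to 3. Ptch 2, with the highest Ddi2, had the lowest Rsc1a1, and AKP 2, with the lowest Ddi2, had the highest. Rsc1a1 itself did not pass in AKP against Ptch (log2 fold change 0.48, SE 0.274, adjusted p = 0.301). Ddi2 made up 45.7% to 81.2% of the summed counts of both genes in Ptch, 60.9% to 67.7% in NKP and 25.2% to 39.6% in AKP.

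Summing both genes shrank the difference. The sum was 13.5 ± 1.16 CPM in Ptch (SD, n = 4), 11.4 ± 1.39 in NKP (SD, n = 3) and 9.98 ± 0.527 in AKP (SD, n = 3). The highest AKP library, at 10.3 CPM, was still below the lowest Ptch library, at 12.5. The summed row had a log2 fold change of -0.43 in AKP against Ptch (SE 0.140, edgeR adjusted p = 0.0794) and no longer passed.

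**Figure D2:**
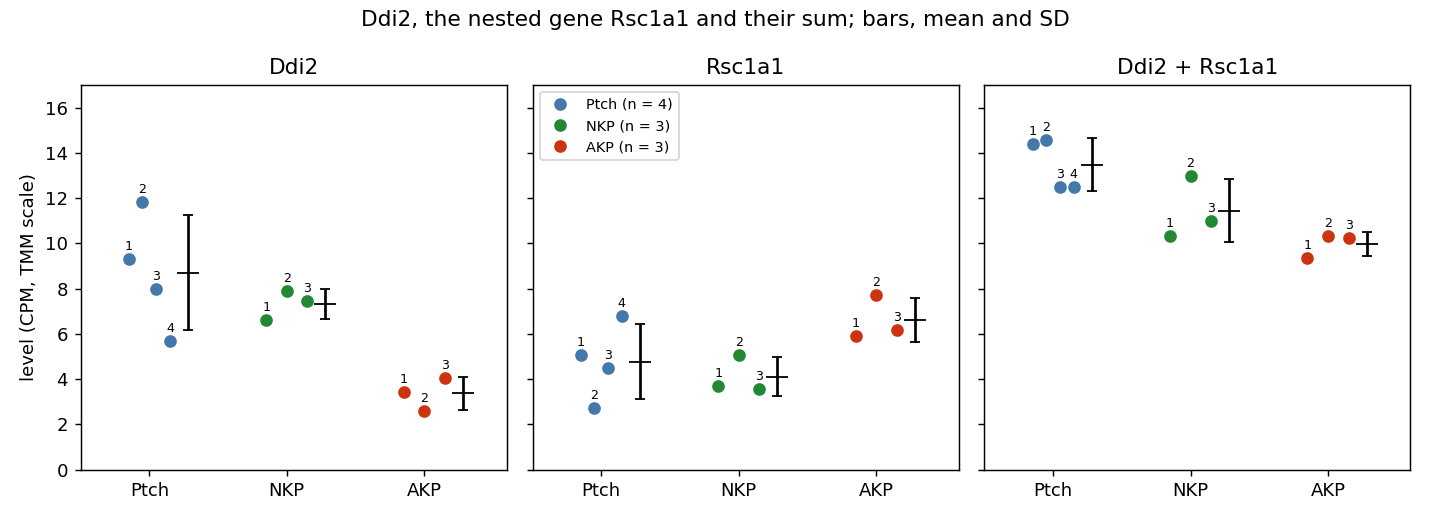
Level in CPM on the TMM scale (vertical axis) of Ddi2, Rsc1a1 and their sum in each library (points, numbered by replicate), with the mean and SD of each group in black. The AKP points lie lowest for Ddi2 and highest on average for Rsc1a1, and the sum runs from 9.37 to 14.6 CPM.

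Nfe2l1 itself varied little. It was at 222, 208, 248 and 241 CPM in Ptch 1 to 4, at 236, 270 and 245 CPM in NKP 1 to 3, and at 222, 241 and 247 CPM in AKP 1 to 3. The 3 groups overlapped, and the coefficient of variation over the 10 libraries was 7.28%. Against Ptch, the log2 fold change was 0.04 in AKP (SE 0.0908, adjusted p = 0.804) and 0.13 in NKP (adjusted p = 0.490). An RNA level does not show how much of the protein is cleaved.

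All 14 constitutive core subunits had a log2 fold change above 0 in AKP against Ptch, and 4 of them passed. In the alpha ring, which gates entry to the core, 2 of 7 were called, the median was 0.35 and the AKP libraries lay above all Ptch libraries for 6. In the constitutive beta ring 2 of 7 were called, the median was 0.39 and the groups were separate for 6. Of all genes, 3.38% were called higher and 12.9% lay above Ptch without overlap. For most core subunits the longest annotated transcript is under 2000 bases. Among all genes of that length, 10.9% were called higher and the median was 0.24.

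Psmb6, the caspase-like cutting subunit, had the largest fold change among the core subunits called. It was at 160, 163, 152 and 145 CPM in Ptch 1 to 4, at 179, 149 and 149 CPM in NKP 1 to 3, and at 182, 261 and 211 CPM in AKP 1 to 3. All AKP libraries were above all others, though AKP 1 exceeded NKP 1 by little. Against Ptch the log2 fold change of Psmb6 was 0.49 (SE 0.117, edgeR adjusted p = 0.0349). It was 0.34 without AKP 2 (adjusted p = 0.154) and 0.16 with the length and GC correction (adjusted p = 0.257).

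Psmb4, a structural beta subunit, was at 186, 192, 185 and 181 CPM in Ptch 1 to 4, at 243, 183 and 184 CPM in NKP 1 to 3, and at 220, 291 and 250 CPM in AKP 1 to 3. The AKP libraries were above Ptch, and NKP 1 stood above AKP 1. For Psmb4 the log2 fold change against Ptch was 0.45 (SE 0.117, adjusted p = 0.0436). The other cutting subunits did not pass. Psmb5 was at 152 ± 9.81 CPM in Ptch (SD, n = 4) and 179 ± 20.3 in AKP (SD, n = 3, adjusted p = 0.119), and Psmb7 at 207 ± 10.7 and 252 ± 33.6 CPM (adjusted p = 0.123).

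Psma7, an alpha ring subunit, was at 177, 172, 157 and 150 CPM in Ptch 1 to 4, at 196, 166 and 153 CPM in NKP 1 to 3, and at 193, 259 and 218 CPM in AKP 1 to 3. The AKP libraries were above Ptch, and NKP 1 exceeded AKP 1. For Psma7 the log2 fold change against Ptch was 0.44 (SE 0.116, adjusted p = 0.0437). Psma2, another subunit of that ring, was at 137, 126, 125 and 130 CPM in Ptch 1 to 4, at 153, 142 and 124 CPM in NKP 1 to 3, and at 159, 194 and 166 CPM in AKP 1 to 3. No AKP library overlapped the other groups, and the log2 fold change against Ptch was 0.42 (SE 0.0970, adjusted p = 0.0315).

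In the cap, 3 of 17 subunits were called higher, 1 of 9 in the base and 2 of 8 in the lid. The base had a median log2 fold change of 0.23 and the lid 0.27, and AKP lay above Ptch without overlap for 7 and 5 of them. The shares of all genes were 3.38% called higher and 12.9% above without overlap. Psmc5, an ATPase of the base, was at 235, 217, 245 and 232 CPM in Ptch 1 to 4, at 293, 249 and 236 CPM in NKP 1 to 3, and at 287, 333 and 301 CPM in AKP 1 to 3. AKP was above Ptch throughout, with NKP 1 among the AKP values. For Psmc5 the log2 fold change against Ptch was 0.40 (SE 0.0959, edgeR adjusted p = 0.0346).

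Psmd14, the lid enzyme that cuts ubiquitin chains off substrates, was at 93.6, 98.4, 79.4 and 88.1 CPM in Ptch 1 to 4, at 99.0, 87.9 and 85.5 CPM in NKP 1 to 3, and at 109, 124 and 114 CPM in AKP 1 to 3. The AKP libraries were the 3 highest. For Psmd14 the log2 fold change against Ptch was 0.36 (SE 0.0943, adjusted p = 0.0431). Psmd12, a scaffold subunit of the lid, was at 73.4, 73.0, 79.4 and 79.2 CPM in Ptch 1 to 4, at 89.0, 85.8 and 78.6 CPM in NKP 1 to 3, and at 91.7, 104 and 97.3 CPM in AKP 1 to 3. The AKP libraries were again the 3 highest, and the log2 fold change against Ptch was 0.36 (SE 0.0816, adjusted p = 0.0315).

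A few cap subunits stayed near their Ptch level. The scaffold proteins Psmd1 and Psmd2, the largest of the base, had log2 fold changes of -0.03 (adjusted p = 0.843) and -0.01 (adjusted p = 0.959), the lid subunit Psmd3 0.03 (adjusted p = 0.859) and the lid subunit Psmd11 -0.13 (adjusted p = 0.520). Psmd1, Psmd2 and Psmd3 also had the lowest coefficients of variation of all members over the 10 libraries, 4.11%, 4.98% and 5.82%. Summed core over summed cap levels gave a ratio of 0.813 to 0.863 in Ptch, 0.821 to 0.875 in NKP and 0.879 to 0.998 in AKP. The AKP libraries were above the others, though AKP 1 at 0.879 lay close to NKP 1 at 0.875. The longest transcripts of Psmd1, Psmd2, Psmd3 and Psmd11 have 3112, 3001, 2894 and 2975 bases, while most core transcripts are under 2000. Over all genes the fold change fell with transcript length, as given below. The ratio, and the part of length in it, was not tested.

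Psmd10, known as gankyrin, is a chaperone of base assembly and no part of the finished proteasome. It was at 19.8, 21.6, 20.6 and 20.5 CPM in Ptch 1 to 4, at 23.0, 19.8 and 20.3 CPM in NKP 1 to 3, and at 24.7, 32.9 and 31 CPM in AKP 1 to 3. The AKP libraries were the 3 highest. Its log2 fold change of 0.52 in AKP against Ptch was the largest among the called rises (SE 0.115, edgeR adjusted p = 0.0282). The chaperones Psmd5 and Psmd9 had log2 fold changes of 0.14 and 0.25 and did not pass (adjusted p = 0.320 and 0.220).

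**Figure D3:**
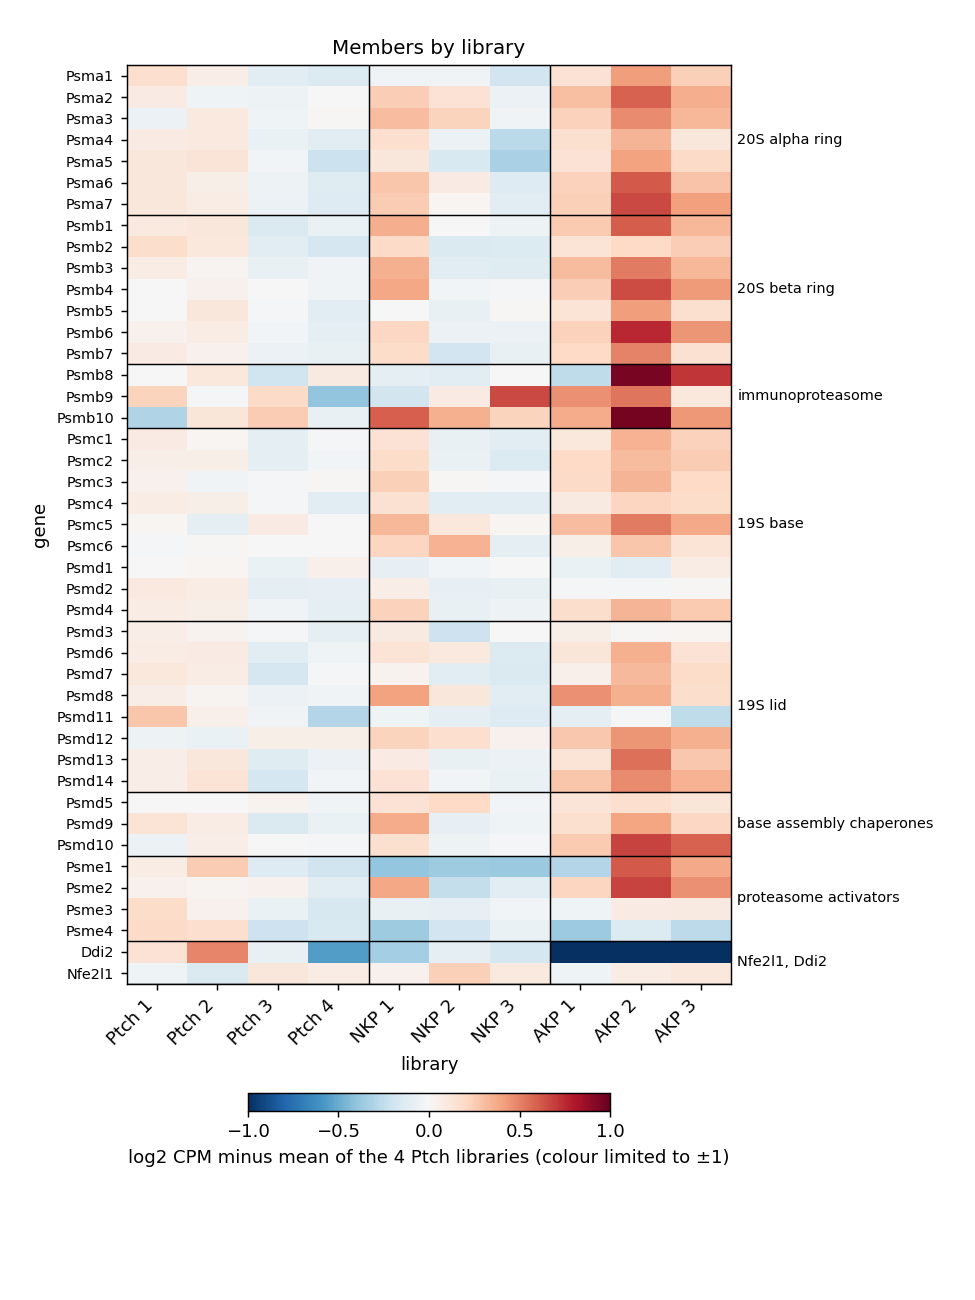
Log2 CPM of each member (rows, grouped by role) in each library (columns) minus the mean of the 4 Ptch libraries; red is higher, blue is lower, and colours stop at 1. AKP 2 is the reddest column in the core and cap rows, NKP 1 resembles AKP 1, and the Ddi2 row is blue in all 3 AKP libraries.

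The shift was unequal among libraries of a group. Averaged over the 31 constitutive subunits, the log2 deviation from the Ptch mean was 0.07, 0.05, -0.06 and -0.07 for Ptch 1 to 4. It was 0.18, -0.02 and -0.09 for NKP 1 to 3 and 0.17, 0.38 and 0.23 for AKP 1 to 3. The library AKP 2 was the highest of the 10 libraries for 24 of the 31 subunits. NKP 1 lay beside AKP 1, and the other NKP libraries lay at or below the Ptch mean. Red blood cell markers were also high in NKP 1, AKP 1, AKP 2 and AKP 3, at 1742 to 2486 CPM. NKP 2 was also above the Ptch libraries in these markers, at 1245 CPM, while its subunits lay at -0.02 from the Ptch mean. The part of these cells in the subunit levels was not tested.

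Transcript length moved with the fold change, over all genes as well as among the subunits. The ranges were chosen after the values were seen, and the length is that of the longest annotated transcript. Among 21 constitutive subunits with transcripts under 2000 bases the median log2 fold change in AKP against Ptch was 0.33, and 6 were called higher. The median of all 3200 genes of that length was 0.24, with 10.9% called higher. Among 7 subunits of 2000 to under 3000 bases it was 0.26 with 1 called, beside 0.06 and 2.55% for 3104 genes. The longest range held only 3 subunits, with a median of -0.01 and none called, beside -0.12 and 0.985% for 8626 genes. Correcting each library for trends with length and GC content left 0 members and 14 genes called in AKP against Ptch (edgeR). The subunit median was then 0.10, and Ddi2, with 9553 bases, was at -1.13 (adjusted p = 0.0734).

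**Figure D4:**
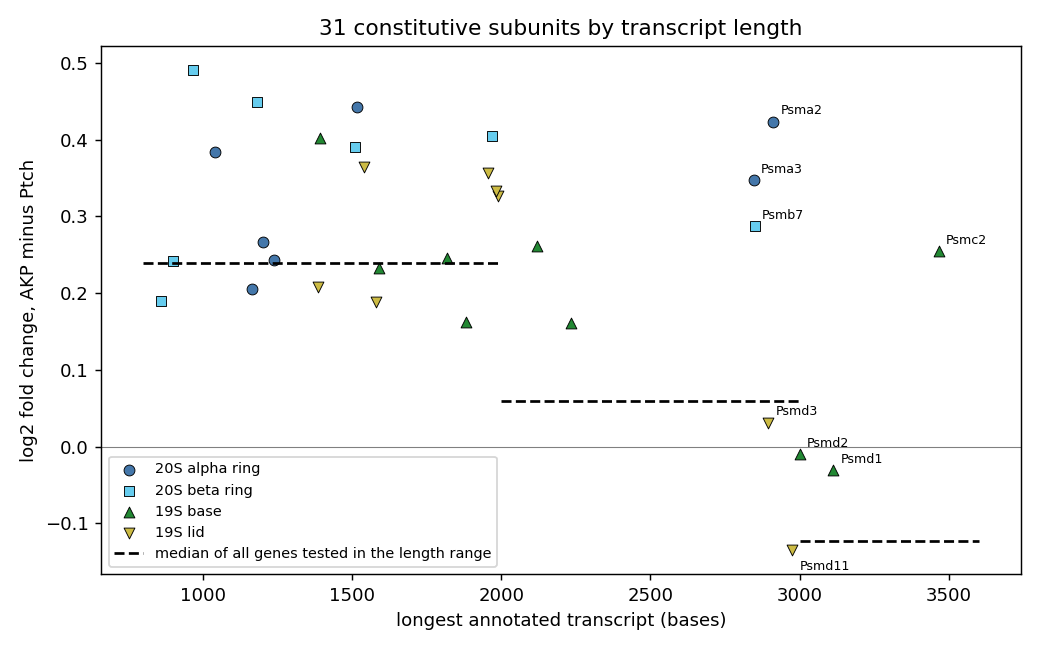
Log2 fold change in AKP minus Ptch (vertical axis) against the longest annotated transcript in bases (horizontal axis) for the 31 constitutive subunits, with dashed lines for the median of all genes tested under 2000, from 2000 to under 3000 and from 3000 bases on. Subunit medians of 0.33, 0.26 and -0.01 sit above the dashed lines at 0.24, 0.06 and -0.12.

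None of the 3 immunoproteasome subunits passed in AKP against Ptch by edgeR. An unadjusted p below 0.05 was reached by 2 of them, Psmb8 and Psmb10, beside 25.1% of all genes. DESeq2 called Psmb10 (adjusted p = 0.0156) and gave Psmb8 and Psmb9 no adjusted p. Psmb10 was at 14.1, 18.9, 20.7 and 16.5 CPM in Ptch 1 to 4, at 26.3, 22.2 and 20.3 CPM in NKP 1 to 3, and at 22.5, 33.8 and 23.4 CPM in AKP 1 to 3. AKP lay above Ptch without overlap, and NKP overlapped both. Against Ptch its log2 fold change was 0.60 in AKP (SE 0.168, edgeR adjusted p = 0.0539) and 0.38 in NKP (SE 0.168, adjusted p = 0.277). Psmb10 was also called in AKP against Ptch with upper quartile scaling (adjusted p = 0.0456), with no filter on low counts (0.0344) and without AKP 1 (0.0301). It was at 0.39 without AKP 2 (0.238) and at 0.37 with the length and GC correction (edgeR adjusted p = 0.231).

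Psmb8 was low in all but 2 libraries. It was at 3.93, 4.24, 3.41 and 4.18 CPM in Ptch 1 to 4, at 3.68, 3.65 and 3.94 CPM in NKP 1 to 3, and at 3.29, 7.65 and 6.49 CPM in AKP 1 to 3. The latter pair, AKP 2 and AKP 3, stood above all others, while AKP 1 was the lowest of the 10. Its log2 fold change in AKP against Ptch was 0.56 (SE 0.257, adjusted p = 0.192). It was 0.84 and called without AKP 1 (adjusted p = 0.0277), and 0.32 without AKP 2 (adjusted p = 0.572). Psmb9 ran from 1.33 to 2.85 CPM with overlapping groups (log2 fold change 0.37 in AKP, SE 0.301, adjusted p = 0.480). An adjusted p above the threshold does not show that these levels were equal.

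Per kilobase of the longest annotated transcript, the immunoproteasome subunits were rare beside those they replace. Psmb10 reached 18.5 ± 3.57 per 100 of Psmb7 in Ptch (SD, n = 4), 24.5 ± 2.12 in NKP (SD, n = 3) and 22.7 ± 2.32 in AKP (SD, n = 3). Psmb8 per 100 of Psmb5 was 1.23 ± 0.139, 1.19 ± 0.0410 and 1.51 ± 0.497 in the same order. These ratios depend on the lengths used. Without division by length the means were 8.53, 11.3 and 10.45 for Psmb10, and 2.61, 2.52 and 3.20 for Psmb8. Per kilobase the mean Ptch levels ran from 0.624 CPM for Psmb9 and 0.912 for Ddi2 to 167 for Psmc5 and 169 for Psmb5.

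None of the 4 activators that open the core passed in AKP against Ptch by edgeR. Psme2 and Psme4 had an unadjusted p below 0.05, as did 25.1% of all genes. DESeq2 called Psme2 (adjusted p = 0.0308). Psme1 and Psme2 form PA28, which is induced by interferon along with the immunoproteasome. Psme1 was at 35.8, 40.5, 31.1 and 29.5 CPM in Ptch 1 to 4, at 26.0, 26.6 and 26.2 CPM in NKP 1 to 3, and at 27.7, 52.0 and 44.3 CPM in AKP 1 to 3. The highest libraries were AKP 2 and AKP 3, AKP 1 lay with NKP, and all NKP libraries lay below all Ptch libraries, the only member for which this was so, beside 8.95% of all genes. For Psme1 the log2 fold change against Ptch was 0.27 in AKP (SE 0.178, edgeR adjusted p = 0.365) and -0.38 in NKP (SE 0.181, adjusted p = 0.305). In AKP it was 0.49 and called without AKP 1 (adjusted p = 0.0348), and 0.08 without AKP 2 (adjusted p = 0.846). Psme2 was at 34.9, 34.6, 35.0 and 31.3 CPM in Ptch 1 to 4, at 44.2, 28.7 and 31.6 CPM in NKP 1 to 3, and at 39.5, 54.2 and 46.5 CPM in AKP 1 to 3. AKP lay above Ptch, and NKP 1 fell between AKP values (log2 fold change 0.46, SE 0.144, adjusted p = 0.0720). Psme2 was called with only the groups compared (adjusted p = 0.0357), without NKP 1 (0.0303) and without AKP 1 (0.0337). It was at 0.14 with the length and GC correction (edgeR adjusted p = 0.458) and at 0.34 without AKP 2 (0.267). The nuclear activators Psme3 and Psme4 had log2 fold changes of 0.04 and -0.26 (adjusted p = 0.826 and 0.195).

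Microglial markers followed the order of Psme1 and Psmb8 among the AKP libraries. Their summed level over 10 genes was 289 to 385 CPM in Ptch, 252 to 263 in NKP, and 261, 513 and 415 in AKP 1 to 3. Of the 10 genes, 7 had a log2 fold change above 0 in AKP against Ptch, 0 passed and none was at 0 in all libraries. Cycling-cell markers, also 10 genes, were summed at 6.17, 216 and 169 CPM in AKP 1 to 3, and at 99.7 to 337 CPM in Ptch and 5.86 to 46.8 in NKP. The part of either cell type in these levels was not tested.

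**Figure D5:**
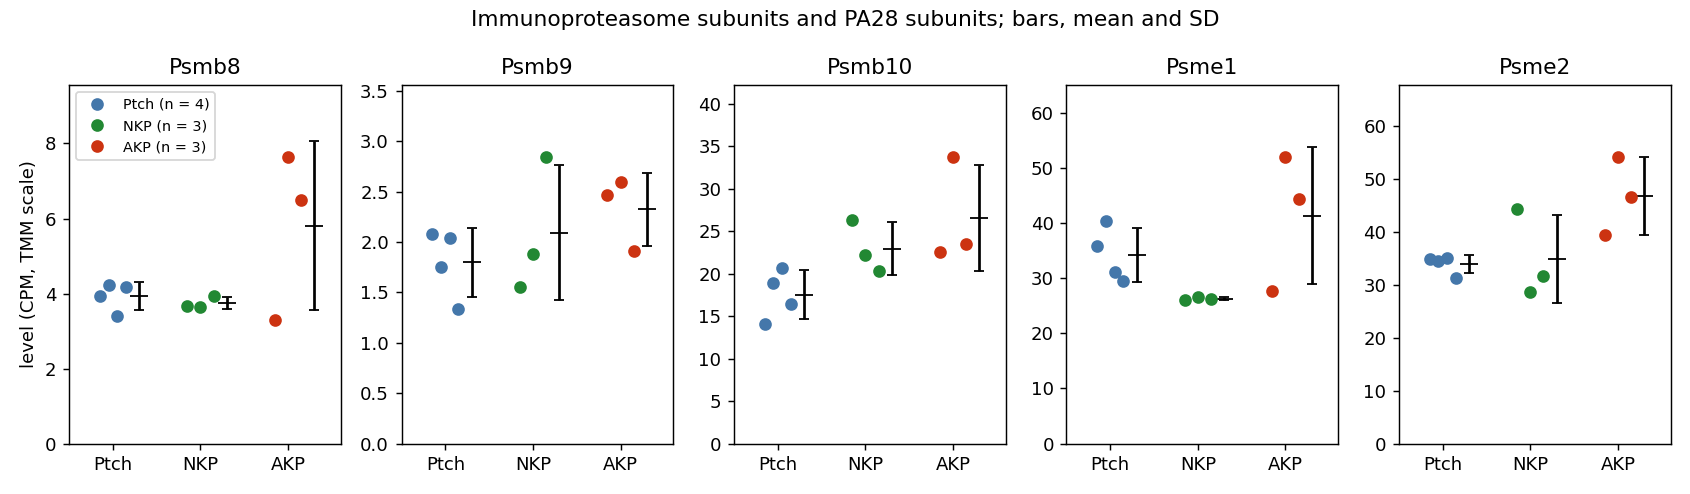
Level in CPM on the TMM scale (vertical axes, each from 0) of Psmb8, Psmb9, Psmb10, Psme1 and Psme2 in each library, with group mean and SD in black. AKP 2 and AKP 3 stand above AKP 1 for Psmb8 and Psme1, and NKP lies lowest for Psme1 at 26.0 to 26.6 CPM.

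In NKP against Ptch no member and 0 of 15617 genes passed (edgeR, 0% called), and at an unadjusted p below 0.05 only Psmb10 did, 2.33% of the members beside 17% of all genes (6.79% higher and 10.2% lower). No member had all NKP libraries above all Ptch libraries, beside 6.96% of all genes. DESeq2 called 0 members and 406 genes. Log2 fold changes were above 0 for 23 of 43 members, beside 52.3% of all genes. The alpha ring had a median of 0.06, the beta ring 0.03, the base -0.0024 and the lid -0.0021. After Psmb10 and Psme1, the smallest p belonged to the lid subunit Psmd12 (log2 fold change 0.15, adjusted p = 0.371) and the alpha subunit Psma3 (0.17, adjusted p = 0.375). Ddi2 was at -0.25 (SE 0.238, adjusted p = 0.612), and at 0.09 without the libraries lacking Y-linked expression. Psmb8 was at -0.07, Psmb9 at 0.23 and Psme2 at 0.03. Leaving out NKP 3, whose Kmt2d level lay within the Ptch range, also gave 0 called members, with a subunit median of 0.06.

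AKP set directly against NKP gave no called member (edgeR), with 1 of 15617 genes passing (0.0064%). At an unadjusted p below 0.05, 24 members were higher and 1, Ddi2, was lower in AKP, 58.1% of the members beside 16.9% of all genes (8.82% higher and 8.04% lower). Log2 fold changes were above 0 for 38 of 43 members, beside 48.5% of all genes. The groups were apart for 12 members higher in AKP, beside 6.69% of all genes, and for Ddi2 lower, beside 9.52%. The smallest p belonged to Ddi2 (-1.12, SE 0.268), Psmd10 (0.49), Psmb6 (0.46) and Psmd14 (0.35), each with an adjusted p of 0.228. Psme1 was at 0.66 (SE 0.193, adjusted p = 0.228), Psmb8 at 0.63 (adjusted p = 0.280), Psme2 at 0.43 (adjusted p = 0.236), Psmb10 at 0.22 and Psmb9 at 0.14. DESeq2 called 230 genes, among them 3 members, Psmb6, Psmd14 and Psme1. It gave Ddi2 no adjusted p in this comparison. AKP and NKP also differed in age, as given above. With age as a covariate Ddi2 was at -0.77 (edgeR adjusted p = 0.123) and Psmb6 at 0.49 (0.115). With Ddi2 and Rsc1a1 summed, the row was at -0.20 (adjusted p = 0.499). Both comparisons with AKP use the same 3 AKP libraries, so their values are not independent.

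Other genes of the pathway were read from lists of known function. Of 17 tested proteasome subunits and regulators named otherwise, 2 were called higher in AKP against Ptch and 0 lower, beside 3.38% and 2.3% of all genes. Their median log2 fold change was 0.18. Pomp, the chaperone that completes core assembly, was at 142, 146, 141 and 153 CPM in Ptch 1 to 4, at 182, 152 and 148 CPM in NKP 1 to 3, and at 188, 230 and 186 CPM in AKP 1 to 3. Only the AKP libraries exceeded 182 CPM, and the log2 fold change was 0.47 (SE 0.10, edgeR adjusted p = 0.0273). Uchl5, a deubiquitinase docked on the cap, was at 33.7 to 41.9 CPM in Ptch, 43.2 to 44.4 in NKP and 48.4 to 55.8 in AKP. The 3 groups did not overlap, and the log2 fold change in AKP was 0.46 (SE 0.0940, adjusted p = 0.0232). Adrm1, the cap's ubiquitin receptor, was at -0.02 (adjusted p = 0.932).

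None of 17 tested genes that process or partner Nfe2l1 passed in AKP against Ptch by edgeR (median -0.02). An unadjusted p below 0.05 was reached by 2, Ogt and Maff, beside 25.1% of all genes. DESeq2 called 1, Ogt (adjusted p = 0.023), and gave Maff no adjusted p. Of the 17, 3 had all AKP libraries below all Ptch libraries, beside 12% of all genes. Ogt, which attaches sugar to Nfe2l1, was at 121 to 136 CPM in Ptch and 96.4 to 98.6 in AKP (log2 fold change -0.36, adjusted p = 0.0615). Ogt was also called with only the groups compared (adjusted p = 0.0266), with no filter on low counts (0.0496) and without NKP 1 (0.0171). It was at -0.27 with the length and GC correction (edgeR adjusted p = 0.134). Maff, a small partner protein, had the largest value of the list at 1.22 (adjusted p = 0.0973) from 0.713 to 2.02 CPM in Ptch and 1.40 to 4.55 in AKP, which overlapped. It was 1.54 and called without AKP 1 (adjusted p = 0.0333), and 0.72 without AKP 2 (adjusted p = 0.425). Ngly1, the enzyme that strips sugar from Nfe2l1, was at 0.08 (adjusted p = 0.718). Ddi1, the testis relative of Ddi2, had 0 counts in every library.

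None of 6 ubiquitin genes passed in AKP against Ptch by edgeR, and 4 had an unadjusted p below 0.05, beside 25.1% of all genes. DESeq2 called 2, Ubb (adjusted p = 0.00383) and Rps27a (adjusted p = 0.0147). The list's median log2 fold change was 0.21, with 4 genes above 0 and 2 below. Ubb, a polyubiquitin gene, was at 2575 to 2676 CPM in Ptch and 3224 to 3612 in AKP (log2 fold change 0.36, edgeR adjusted p = 0.0718), and passed with upper quartile scaling (0.0498), with only the groups compared (0.044) and without NKP 1 (0.0342). Rps27a, which fuses ubiquitin to a ribosomal protein, was at 0.53 (adjusted p = 0.0672), at 0.73 and called without AKP 1 (0.00633) and at 0.27 without AKP 2 (0.265). The length and GC correction left Ubb at 0.17 (edgeR adjusted p = 0.318) and Rps27a at 0.12 (0.654). The activating enzymes Uba1 and Uba6 were at -0.20 (adjusted p = 0.161) and -0.34 (adjusted p = 0.338), and all AKP libraries lay below all Ptch libraries for Uba1. These 2 were named after their values were seen.

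None of 13 tested interferon and peptide-loading genes passed in AKP against Ptch by edgeR or DESeq2. An unadjusted p below 0.05 (edgeR) was reached by 2, Isg15 and Bst2, beside 25.1% of all genes. DESeq2 gave Isg15 no adjusted p. The list's median was 0.09. Isg15, a ubiquitin-like protein, was at 2.43 to 3.46 CPM in Ptch and 4.44 to 6.13 in AKP without overlap (log2 fold change 0.80, edgeR adjusted p = 0.0532). It passed with upper quartile scaling (adjusted p = 0.0454) and without AKP 1 (0.0336), and was at 0.42 with the length and GC correction (0.384). The antiviral Bst2 was at 0.56 (adjusted p = 0.115).

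Of the 8 members called higher, all have a promoter in the table and 4 hold the letters TGANNNNGC, namely Psma7, Psmb4, Psmb6 and Psmd12. Of those with a promoter, 56.8% of all members and 45% of all genes hold these letters. In Psmb6 they begin at base -9 from the start site, as printed above, and in Psmd12 at -28 and -247. In Psma7 and Psmb4 they begin inside the transcribed stretch, at +42 and +18.

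The genes whose levels most resembled Ddi2 over the 10 libraries were Ano8, Sbno2, Tnrc18, Rpap1 and Unc79, with Pearson correlations of 0.962, 0.953, 0.951, 0.949 and 0.948 in log2 CPM. For Nfe2l1 they were Sowahc, Jcad, Sqor, Calml4 and Kank4, with 0.944, 0.932, 0.927, 0.922 and 0.912. These points share libraries and depth, and the correlations are given as a description only.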

How the data were processed

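Poly-A RNA was sequenced after preparation with a TruSeq v2 kit (per the labels), without marking of strand. Per the submitters' processing notes the authors used Trim Galore, STAR and RSEM with GRCm38; no version or annotation is named there. Per gene symbol, the deposited table holds expected counts that were already whole numbers. RSEM divides reads shared by copies by estimation. Psme2b, for example, is 99.4% identical to Psme2 over 794 bases. Psmb7, Psmb9, Psmc3, Psmd13 and others overlap opposite-strand genes.

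Genes were kept by filterByExpr (15617 genes), scaled by TMM and tested by the robust quasi-likelihood method of edgeR 4.0.16 under R 4.3.3, in 1 fit of 10 libraries, with Benjamini-Hochberg adjustment at 0.05. SE is the log2 fold change divided by the square root of F. The labels do not state whether each library is a separate animal; p-values therefore describe variation among these libraries, which may be technical. Gene models came from GENCODE vM21. Alternatives were other scalings, DESeq2 1.42.0, other filters, covariates, a replicate block, a length and GC correction and each library left out. Sums of Ddi2 with Rsc1a1 and of Psme2 with Psme2b, and the fit without libraries lacking Y-linked expression, were added after seeing the data. Values with a fold change were named for Ddi2, Nfe2l1, Psmb8, Psmb9, Psmb10, Psme1, Psme2, all called members, the 4 members of smallest p elsewhere and 2 genes per related list; further genes were named after their values were seen. The members and all lists were chosen with earlier results of these data known.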

Additional observations from a re-analysis of the deposited data

Results flagged for a closer look

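Psme2 in the Ptch group was the 1 of 43 members in which a library stood apart from its group by the size of its gap. Ptch 4 was at 31.3 CPM, and the other Ptch libraries at 34.6 to 35 CPM, a gap of 0.889 of the range, above Dixon's critical value for 4 samples. Chance gives such a gap in about 1 in 20 groups.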

How the results depend on the processing

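In AKP against Ptch 9 members and 887 genes were called. Other settings called 14 members of 994 genes (upper quartile scaling), 20 of 1940 (DESeq2), 16 of 1211 (only the groups compared), 1 of 231 (sex label as a covariate), 0 of 14 (length and GC correction) and 0 of 0 (without the libraries against their sex label, or without those lacking Y-linked expression). Leaving out 1 library at a time gave 0 to 17 members, with 0 to 1459 genes called. RLE scaling, both other filters, age as a covariate and both summed rows gave 8 to 12. In AKP against NKP DESeq2 called 3 members of 230 genes. Leaving out 1 library gave 0 to 9 members there, the 9 among 1364 genes called without AKP 1. NKP against Ptch gave 0 members under each alternative run, with 406 genes called by DESeq2 and 933 with age as a covariate. Deviations of same-numbered libraries from their group means correlated at -0.335, 0.341 and -0.163 between AKP and Ptch. They did so at -0.001, -0.225 and -0.2 between NKP and Ptch, and at 0.218, -0.234 and 0.316 between AKP and NKP. The signs were mixed, and so few values cannot settle whether the numbers pair the samples. A fit with the replicate block called 0 members and 0 genes in each comparison. Of the genes called in AKP against Ptch, 741 were higher with upper quartile scaling and 528 with TMM.

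These values changed sign. Psme2 in NKP against Ptch was -0.0096 with the replicate block, -0.0186 with the length and GC correction and -0.17 to 0.16 with 1 library left out. Nfe2l1 was 0.0091 in AKP against NKP with that correction, and -0.0398 in AKP against Ptch without the libraries lacking Y-linked expression, where Ddi2 was 0.0896 in NKP against Ptch. Psmb9 ran from -0.0227 to 0.44 in AKP against NKP and from -0.0595 to 0.39 in NKP against Ptch with 1 library left out. The cause was not tested. Ddi2 in AKP against Ptch stayed below 0 in 23 alternatives, from -1.53 to -0.43, and was called in 14.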
